A study of Mus musculus with 12 samples.

Results

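The genes described here encode the proteins of the cytosolic ribosome. They were taken by name from the count table, as every gene whose symbol is Rpl or Rps followed by a number, with or without an ending such as a, l or x, together with Rplp0, Rplp1, Rplp2 and Rpsa. This gave 85 of 24495 genes, of which 84 were among the 15532 genes with enough reads to be tested. The remaining gene, Rpl26 (chromosome 11, 68715085 to 68720491 of mm9), had 0 counts in all 12 libraries, which allows a level of up to 0.269 CPM (reads of a gene scaled to the size of its library) in the shallowest library and 0.11 in the deepest, counting error only.

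RNA-seq was made from CCE-Nanog-GFP mouse embryonic stem cells (mESCs) sorted for GFP, and from the embryoid bodies (EBs) that these cells formed 2 and 4 days after retinoic acid (RA) was added and LIF withdrawn (Day 2 and Day 4, with the undifferentiated mESCs as Day 0). The control line shSC carried a scrambled short hairpin RNA and the shCTSL line one against Ctsl, the gene of the protease cathepsin L, the latter in the vector pLKO.1, delivered by lentivirus with puromycin selection. Every one of the 6 groups had 2 libraries, and all come from the reporter line. A single shCTSL line was sequenced, and the labels do not say which hairpin it carried or whether the 2 libraries of a group came from separate cultures, so p-values measure the spread between these libraries, which may be technical. Levels below are CPM after TMM scaling, with replicate 1 before replicate 2. Calls of a change required an adjusted p under 0.05 (edgeR's quasi-likelihood test, Benjamini-Hochberg adjustment over all 15532 genes) and at least a 1.5-fold difference.

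A ribosome has a large subunit, which joins amino acids, and a small subunit, which reads the mRNA, and each protein is in most cases present once per particle, so that cells make the different proteins in matched amounts. Proliferating cells spend much of their transcription and translation on making ribosomes, and mESCs divide fast. Most vertebrate mRNAs of this family begin with a C followed by a run of C and T, the 5′ terminal oligopyrimidine (TOP) tract, through which the kinase mTOR and the protein LARP1 act on their translation, and LARP1 also on their stability. The genes have few bases per transcript and have left many processed pseudogenes in the mouse genome, near copies that compete with the genes for reads.

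RefSeq start sites on GRCm38.p6 were found for 64 of the 85 genes (54 with 1 start, 8 with 2 and 2 with 3), and none for the others, among them Rpl7, Rps20, Rpl21, Rpl32, Rps4l, Rplp1, Rpl29, Rps27a, Rpl23a, Rps29, Rpl30, Rpl8, Rpl3, Rpl36, Rps14 and Rpl17. The start regions are shown as 40 bases before the listed start base and 20 bases from it, to set genes with a TOP-like start beside paralogs without one at the listed base. Capitals mark copies of CGGAAG or its reverse complement CTTCCG, the core that factors of the ETS family can bind, and a run of at least 5 C or T that begins at the start base. The first 4 are genes that begin with such a run: Rpl38, which fell most in shSC, Rps6, Rpl15, whose fold change in shSC was near 0, and Rps10, called higher at Day 2 in shCTSL. The next gene, Rps3a1, fell in both lines and has no such run. The last 3 are the paralogs Rpl10l, Rpl39l and Rpl22l1, whose start regions as shown hold neither feature. Rpl39l has CGGAAG or its reverse complement elsewhere in the 300 bases counted below, and CTTTCC within 20 bases of the listed start. In Rpl22l1 the listed start base is a G, and a run of C and T begins at the next base.
Rpl38 (chr11:114668540-114668599, + strand): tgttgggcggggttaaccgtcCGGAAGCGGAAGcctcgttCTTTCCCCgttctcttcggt
Rps6 (chr4:86857348-86857407, - strand): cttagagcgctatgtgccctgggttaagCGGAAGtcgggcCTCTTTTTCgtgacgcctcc
Rpl15 (chr14:18270967-18271026, - strand): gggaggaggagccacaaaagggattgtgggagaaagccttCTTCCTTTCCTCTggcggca
Rps10 (chr17:27635225-27635284, - strand): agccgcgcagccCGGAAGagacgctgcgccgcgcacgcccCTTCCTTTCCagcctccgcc
Rps3a1 (chr3:86142649-86142708, - strand): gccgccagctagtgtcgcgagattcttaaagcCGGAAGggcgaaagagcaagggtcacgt
Rpl10l (chr12:66284382-66284441, - strand): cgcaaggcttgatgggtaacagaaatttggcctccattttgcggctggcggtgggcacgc
Rpl39l (chr16:10170188-10170247, + strand): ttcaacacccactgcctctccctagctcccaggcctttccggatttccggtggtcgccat
Rpl22l1 (chr3:28805468-28805527, + strand): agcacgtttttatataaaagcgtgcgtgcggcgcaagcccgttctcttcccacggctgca

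Over the 300 bases from 250 before to 50 after the start, CGGAAG on either strand was present in 42 of the 64 genes (65.6%), against 18.8% of all 27025 genes in the same table. A C at the listed start followed by at least 4 more C or T was present in 14 of 64 (21.9%), against 3.01% of all genes, and CTTTCC on the transcribed strand within 20 bases of the start in 11 (17.2%), against 2.3%. CTCTTT in the same window was in 9 (14.1%, against 1.81%), and TATAAA on either strand in 8 (12.5%, against 15.7%). The fall at the median differed little with CGGAAG in shSC and was larger with it in shCTSL. It was smaller with the pyrimidine start in both lines. These differences were not tested. The median log2 fold change at Day 4 was −0.94 in shSC with CGGAAG and −0.96 without it, and −0.76 with the pyrimidine start and −0.99 without it. In shCTSL the same medians were −0.89 and −0.72, and −0.59 and −0.89. A listed start may be some bases away from the base that a cell uses, so a missing run says only that these letters are not at the listed base.

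The libraries held 11171111 to 27155553 counted reads. Ctsl, the targeted gene, had 137 and 147 CPM at Day 0 in shSC and 39.2 and 37.5 in shCTSL, lower by 1.89 on a log2 scale (called, adjusted p = 0.00246). It had 369 and 391 in shSC and 211 and 155 in shCTSL at Day 2 (−1.06, SE 0.14, adjusted p = 0.0342), and 484 and 423 in shSC and 257 and 253 in shCTSL at Day 4 (−0.83, SE 0.14, adjusted p = 0.0896, not called). Of 8 markers of undifferentiated mESCs, 7 were called lower at Day 4 in both lines, all but Tbx3, and their summed level was 5963 to 6033 CPM in shSC mESCs and 585 to 688 at Day 4, and 5643 to 5650 and 581 to 646 in shCTSL. All 6 RA target genes were called higher at Day 4 in both lines, and so were 4 of 4 endoderm markers, whose sum was 5.27 to 5.41 CPM at Day 0 and 262 to 294 at Day 4 in shSC, and 5.67 to 6.32 and 281 to 309 in shCTSL. Of 5 fibroblast markers, 4 were higher and 1 lower, with a sum of 14.9 to 15.6 CPM at Day 0 and 407 to 412 at Day 4 in shSC, and 11.5 to 12.4 and 405 to 432 in shCTSL, with none of the 5 at 0 on either day. Of 3 mesoderm markers 1 was higher and 1 lower in shSC and 1 higher and 2 lower in shCTSL, and of 3 neural markers 2 and 3 were higher. In bulk RNA, a change in the share of cells of a type and a change in RNA per cell cannot be told apart, and the part of the changing cell mixture in what follows was not tested.

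Replicate 1 of shCTSL Day 2 stands apart from the other 11 libraries, in a way that touches short transcripts and so most ribosomal protein genes. Its log2 CPM fell by 0.36 per doubling of transcript length over all genes, against slopes from −0.14 to 0.21 in the others, and the ribosomal RNA gene Rn45s held 3.43% of its counts against 0.17% to 1.43% elsewhere. Of the 84 ribosomal protein genes, 82 were higher in it than in replicate 2 of the same group (all but Rpl10a and Rpl29), 68 of them at least 1.5 times, with a median ratio of 2.02. The same ratio was 1.71 over the other genes with a transcript of up to 1000 bases and 1 over all genes tested. Results that rest on Day 2 of shCTSL are therefore given with and without this library.

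The 85 genes together took 2.0% and 2.03% of the counted reads in shSC mESCs, 1.69% and 1.75% at Day 2 and 1.43% and 1.47% at Day 4. In shCTSL they took 2.3% and 2.03% at Day 0, 3.22% and 1.62% at Day 2, and 1.68% and 1.99% at Day 4. In shSC the share fell at each step with no overlap between days. In shCTSL both Day 4 libraries lay below both Day 0 libraries, and Day 2 spanned the whole range. A few genes dominate these sums, since 6 of them, with Rpl4, Rpl8, Rps3, Rpl13a and Rplp1 among these, held 39.6% to 42.7% of the reads of the 85 genes in every library.

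**Figure D1:**
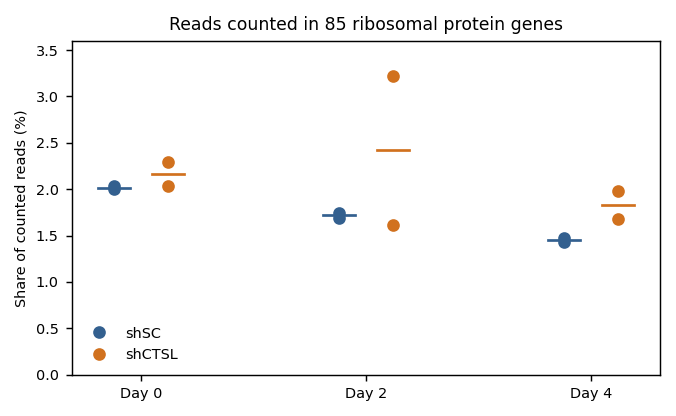
Share of counted reads (%, y axis, from 0) in the 85 ribosomal protein genes for each library on Day 0, Day 2 and Day 4, for shSC and shCTSL, with a line at the mean of each pair. The shSC share fell from 2.0% and 2.03% to 1.43% and 1.47%, and replicate 1 of shCTSL Day 2, at 3.22%, lies far above its pair at 1.62%.

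The levels of these genes span a wide range in the deposited counts. Rpl4 had the highest mean over all libraries (2064 CPM) and Rpl30, also a core protein of the large subunit, the lowest (1.14 CPM). To measure how far copies could matter, each window of 75 bases of a gene's transcript was looked up in the mm9 genome, and it was counted as copied when it occurred unchanged at another place. Over the 83 genes with a transcript in the annotation, the median share of copied windows was 48.7%, the highest was 99.6% (Rps27) and 4 genes had none, among them Rps3, Rpl39l and Rpl3l. Rpl26, at 0 counts, had 71.5% copied. The 19 genes with a mean under 10 CPM had a median of 83.5% copied, and 15 of them had over 50%. The 41 genes with a mean of at least 100 CPM had a median of 33%, and 9 had over 50%. A low level in this table therefore cannot be read as a low mRNA amount where a transcript is mostly copied, because alignments with a mapping quality under 10, as given to reads with several equal places in the genome, were removed before counting. Among the 15 genes with at most 15% of windows copied, levels per kilobase of transcript in shSC mESCs ran from 1.12 CPM for Rpl3l to 2506 for Rpl8, with Rpl4 next at 2008.

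The first question of the design is how the transcripts change as mESCs differentiate. In shSC more than 50% of the genes were called lower by Day 2 and at Day 4, and none was called higher. At Day 2, 46 of 84 were called lower and 0 higher than at Day 0, where 25.3% and 29.3% of all genes tested were, and their median log2 fold change was −0.79 (all genes 0.02). At Day 4, 55 were called lower and 0 higher, against 28.7% and 32.1% of all genes, with a median of −0.94 (all genes 0.03), a loss of 48% at the median. The fitted value was below 0 in 83 of 84, and 36 of the called genes fell at least 2-fold, within a range of 1.51- to 6.27-fold. The number called lower was 34 without replicate 1 of shSC Day 4 and 36 without replicate 2 (25.8% and 26.1% of all genes in those fits). In 79 of 84 both Day 4 libraries lay below both Day 0 libraries, as in 44.2% of all genes. Between Day 2 and Day 4 only 2 paralogs, Rpl10l and Rpl3l, were called lower and 0 genes higher, against 12.4% and 11.4% of all genes, and the median was −0.16. The Rpl10l call (−0.91, SE 0.24, adjusted p = 0.0174) did not hold when any 1 of the 4 libraries was left out (adjusted p of 0.0721 to 0.0984). Of the genes called lower at Day 4, 43 were called at Day 2 already and 12 at Day 4 only. Another 3 (Rpl19, Rpl24 and Rpl35) were called at Day 2 only.

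In shCTSL more than 50% of the genes were likewise called lower over the 4 days. At Day 4, 45 of 84 were called lower and 0 higher than at Day 0 (27.6% and 32.3% of all genes), with a median of −0.82 (all genes 0.06), a loss of 43.2%. The fitted value was below 0 in 76 of 84, and 27 of the called genes fell at least 2-fold, within a range of 1.61- to 3.72-fold. Without replicate 1 of shCTSL Day 4 the number called lower was 26 (24.9% of all genes). In 72 of 84 both Day 4 libraries lay below both Day 0 libraries (42.4% of all genes). Called lower in both lines were 42 genes, 76.4% of the shSC list and 93.3% of the shCTSL list, while 26 were called in neither line. In addition 13 were called only in shSC and 3 only in shCTSL (again Rpl19, Rpl24 and Rpl35), and these are differences in calls, not tested differences between the lines. Day 2 of shCTSL gave 23 lower and 3 higher calls (24.6% and 30.9% of all genes) with a median of −0.37. Without replicate 1 of that group these became 61 lower and 1 higher with a median of −0.94 (25.4% and 32.1% of all genes in that fit), and without replicate 2 they became 14 lower and 15 higher with a median of 0.10 (27.2% and 31.5% of all genes). From Day 2 to Day 4, 4 were called lower and 0 higher (12.4% and 11% of all genes), with a median of −0.38. That became 0.16 without replicate 1 of Day 2 (4 lower and 8 higher, against 13.9% and 11.7% of all genes in that fit) and −0.79 without replicate 2 (59 lower, against 18.9% of all genes).

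**Figure D2:**
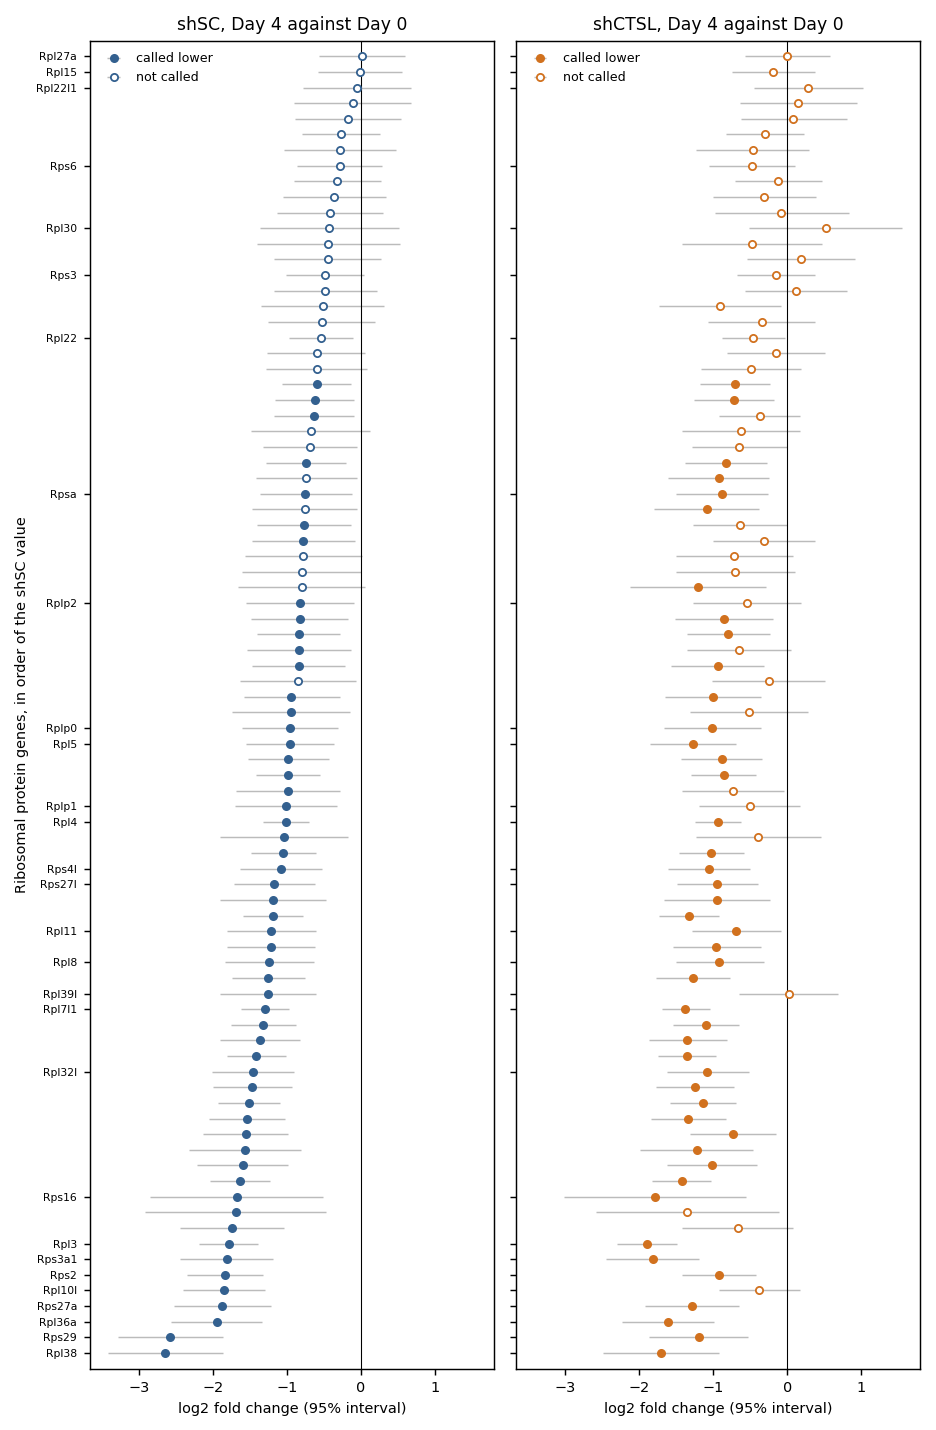
Log2 fold change at Day 4 against Day 0 (x axis, points, with 95% intervals from the fit) of the 84 tested ribosomal protein genes in shSC (left) and shCTSL (right), in order of the shSC value, with some genes named on the y axis and called genes filled and the others open. In shSC 83 of 84 points lie below 0 and 55 are called, and in shCTSL 76 lie below 0 and 45 are called.

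The large subunit without paralogs has 42 of the tested genes. At Day 4, 28 were called lower in shSC (median −0.97) and 26 in shCTSL (median −0.90). Rpl4 (chromosome 9, 64021194 to 64026369, with 9.2% of windows copied), which lines the exit tunnel for the new chain, shows the change at high depth. It had 2879.9 and 2832 CPM in shSC mESCs, 1569 and 1625 at Day 2 and 1402 and 1428 at Day 4. In shCTSL it had 3159 and 3012 at Day 0, 2099 and 1535 at Day 2 and 1496 and 1729 at Day 4. Every Day 4 library lay below every Day 0 library in both lines, and the fall was called in both (shSC −1.01, SE 0.14, adjusted p = 0.000113, shCTSL −0.94, SE 0.14, adjusted p = 0.000204). Rpl8 (chromosome 15, 76734501 to 76736748), a protein near the site of peptide bond formation, had 2124 and 2197 CPM at Day 0 and 903 and 922 at Day 4 in shSC, and 2218 and 1989 at Day 0 and 1005 and 1220.3 at Day 4 in shCTSL. It fell in both lines (−1.24, SE 0.27, adjusted p = 0.00205 in shSC and −0.92, SE 0.27, adjusted p = 0.0113 in shCTSL), although the 2 shCTSL Day 2 libraries, at 2426 and 1142 CPM, are far apart.

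The steepest falls belong to genes at low counts with much copied sequence. Rpl38 (chromosome 11, 114529838 to 114533645, 75.1% copied) is known for the part it plays in the translation of Hox mRNAs in the mouse embryo. It went from 11.7 and 8.43 CPM at Day 0 to 2.06 and 1.66 at Day 2 and 1.55 and 1.66 at Day 4 in shSC, a fall of 6.27-fold at Day 4 (−2.65, SE 0.35, adjusted p = 7.01e-05). In shCTSL it went from 4.63 and 8.64 to 1.89 and 2.07 (−1.71, SE 0.35, adjusted p = 0.00149), with its Day 0 libraries almost 1 log2 unit apart. Rpl3 (chromosome 15, 79908211 to 79913836, 89% copied), a protein of the peptidyl transferase centre, fell most in shCTSL, from 30.7 and 27 CPM to 7.2 and 8.31 (−1.90, SE 0.18, adjusted p = 7.14e-06), and from 27.1 and 27.9 to 7.03 and 8.95 in shSC (−1.79, SE 0.18, adjusted p = 1.02e-05). Rpl36a (92.2% copied) fell in shSC by 1.95 in log2 units (SE 0.28, adjusted p = 0.000121) and in shCTSL by 1.61 (SE 0.28, adjusted p = 0.000509).

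Rpl5 and Rpl11, which bind Mdm2 when ribosome assembly is disturbed and so connect it to p53, were both called lower in both lines. Rpl5 (48% copied) had 6.02 and 4.28 CPM at Day 0 and 2.39 and 2.91 at Day 4 in shSC, and 5.22 and 8.22 at Day 0 and 2.98 and 2.51 at Day 4 in shCTSL (−0.96, SE 0.26, adjusted p = 0.00814, and −1.27, SE 0.26, adjusted p = 0.00153). Rpl11 (68.4% copied) had 10.8 and 9.05 at Day 0 and 4.64 and 3.88 at Day 4 in shSC, and 7.83 and 9.48 at Day 0 and 5.36 and 5.31 at Day 4 in shCTSL (−1.21, SE 0.27, adjusted p = 0.00251, and −0.69, SE 0.27, adjusted p = 0.043). At the other end, Rpl15 and Rpl27a had fold changes near 0 in shSC. Rpl15, whose start region has the longest pyrimidine run shown, had 178 and 179.7 CPM at Day 0 and 180.1 and 175 at Day 4 in shSC (−0.01, SE 0.25, adjusted p = 0.97), and 243 and 234 at Day 0 and 206 and 214 at Day 4 in shCTSL (−0.19, SE 0.25, adjusted p = 0.534). Rpl27a had 59.2 and 63 at Day 0 and 62.4 and 60.5 at Day 4 in shSC (0.01), and 84.1 and 79.4 at Day 0 and 78 and 85.5 at Day 4 in shCTSL (0.00, each a log2 fold change). The highest fitted values in shCTSL at Day 4 were those of Rpl30 (0.52, adjusted p = 0.343) and Rpl22l1 (0.28, adjusted p = 0.462), neither of them called. Rpl30 rests on a level of 0.895 and 1.05 CPM at Day 0 and 0.92 and 1.82 at Day 4.

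The small subunit without paralogs has 31 tested genes, of which 18 were called lower at Day 4 in shSC (median −0.77) and 14 in shCTSL (median −0.71). Rps3 (chromosome 7, 106626406 to 106632248), at the mRNA entry site, is among its most abundant genes and has no copied window. It went from 1492 and 1567 CPM to 1129.7 and 1062 in shSC (−0.48, SE 0.24, adjusted p = 0.0932) and from 1758 and 1498 to 1326 and 1597 in shCTSL (−0.16, SE 0.24, adjusted p = 0.573). Neither change of Rps3 was called, and in shCTSL its libraries of the 2 days overlap.

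Rps6, the substrate of S6 kinase downstream of mTOR, had 21.6 and 21.4 CPM at Day 0 and 18.8 and 16.3 at Day 4 in shSC, and 28.2 and 25.3 at Day 0 and 18.2 and 20 at Day 4 in shCTSL (−0.29, SE 0.26, adjusted p = 0.344, and −0.48, SE 0.26, adjusted p = 0.123). It was not called in either line, and 94.5% of its windows are copied. Rpsa, also known as a receptor for laminin, had 173 and 194 at Day 0 and 111 and 107 at Day 4 in shSC, and 239 and 226 at Day 0 and 117 and 134 at Day 4 in shCTSL, and fell in both (−0.75, SE 0.28, adjusted p = 0.0352, and −0.89, SE 0.28, adjusted p = 0.0169). Rps27a is made as a fusion with ubiquitin and so supplies both pools. It went from 24.2 and 19.5 CPM to 4.68 and 7.35 in shSC (−1.88, SE 0.29, adjusted p = 0.000238) and from 17.8 and 23.3 to 7.96 and 8.76 in shCTSL (−1.29, SE 0.29, adjusted p = 0.00247), with all Day 4 libraries below all Day 0 libraries.

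At Day 2 the lowest fitted values of the family in shSC were those of Rps29 (−2.68), Rpl38 (−2.42), Rps16 (−2.19), Rpl34 (−2.18) and Rps3a1 (−1.95), all called, that of Rps16 not without Day 0 replicate 1 (−1.49, adjusted p = 0.0505). In shCTSL they were those of Rps3a1 (−1.75), Rps29 (−1.56), Rpl27 (−1.53), Rps13 (−1.49) and Rps27a (−1.46), all called. At Day 4 the lowest of the small subunit were those of Rps29 in shSC and of Rps3a1 and Rps16 in shCTSL. Rps29 (chromosome 12, 70258709 to 70260173, 74.1% copied), a small zinc-binding protein, went from 3.81 and 2.85 CPM to 0.465 and 0.569 at Day 2 and 0.398 and 0.763 at Day 4 in shSC, or from 50 and 46 counts to 9 and 11 at Day 4 (−2.58, SE 0.32, adjusted p = 4.56e-05). Rps3a1 fell by 1.81 in shSC and 1.82 in shCTSL on the log2 scale (adjusted p = 0.000231 and 0.000246). Rps16 had 10.3 and 31.4 CPM in the shCTSL Day 0 libraries and 4.28 and 7.53 at Day 4 (−1.79, SE 0.55, adjusted p = 0.0149). Its Day 0 libraries differ 3-fold in one line and 2-fold in the other, and the shCTSL call was lost without Day 0 replicate 2 (−0.79, adjusted p = 0.223) and without Day 4 replicate 1 (−1.45, adjusted p = 0.1). Rps2, whose protein sits at the mRNA entry, fell from 353 and 296 to 84.7 and 96.9 in shSC (−1.84, SE 0.23, adjusted p = 4.75e-05). Rps13 was called lower at Day 2 in shCTSL (−1.49, SE 0.56, adjusted p = 0.0398), with Day 0 libraries of 4.03 and 10.3 CPM, and this call was lost without the higher of these, replicate 2 (−0.68, adjusted p = 0.378), and without Day 2 replicate 2 (−0.82, adjusted p = 0.121), and also without any 1 of 6 others (adjusted p of 0.0507 to 0.0548).

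The stalk of the large subunit, which recruits the GTPases of elongation, is built from Rplp0, Rplp1 and Rplp2, and all 3 were called lower at Day 4 in shSC (median −0.96). Rplp0 (chromosome 5, 116009476 to 116013736) had 642 and 693 CPM at Day 0 and 344 and 341 at Day 4 in shSC, and 859 and 781 at Day 0 and 387 and 425 at Day 4 in shCTSL, and it is the only one of the 3 called in shCTSL (−0.96, SE 0.29, adjusted p = 0.0141, and −1.02, SE 0.29, adjusted p = 0.011). Rplp1 had 949 and 1035 at Day 0 and 472 and 511 at Day 4 in shSC, and 1227 and 906 at Day 0 and 690.2 and 804 at Day 4 in shCTSL. Its log2 fold change was −1.01, SE 0.31, adjusted p = 0.0139 in shSC and −0.51, SE 0.31, adjusted p = 0.16 in shCTSL. Rplp2 went from 267 and 234 CPM to 147 and 136 in shSC (−0.82, SE 0.33, adjusted p = 0.0446) and from 255.7 and 228 to 146 and 185 in shCTSL (−0.55, SE 0.33, adjusted p = 0.157). For each of the 3, both Day 4 libraries lay below both Day 0 libraries in each line.

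Each comparison of Day 2 with another day in shCTSL uses its uneven Day 2 libraries by design. Not every call there was lost when a Day 2 library was left out. Among those called higher at Day 2 than at Day 0 were Rpl3l and Rps10. Rps10 had 61 and 46.9 CPM at Day 0 and 138 and 58.1 at Day 2 (0.85, SE 0.31, adjusted p = 0.0337). Without replicate 1 of Day 2 its value was 0.13 (adjusted p = 0.361), not called, and the call was also lost without Day 0 replicate 2 (adjusted p = 0.17). Among those called lower from Day 2 to Day 4 were Rpl3l, Rpl18 (−0.96, SE 0.31, adjusted p = 0.043) and Rps2 (−0.94, SE 0.22, adjusted p = 0.0104). The value of Rpl18 was −0.18 without replicate 1 of Day 2 (adjusted p = 0.184), and its call was lost without any 1 of 11 libraries, all but replicate 2 of Day 2, with an adjusted p of 0.0586 to 0.21. The call of Rps2 (−0.79, adjusted p = 0.0988) was lost without replicate 1 of Day 4.

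Length and level were compared next, since the genes are short and were abundant in mESCs. Among genes outside this family with a transcript of up to 1000 bases (892 tested), 324 were called lower and 160 higher at Day 4 in shSC, with a median of −0.41, and 245 and 212 in shCTSL, with a median of −0.18. When these were also required to have a mean of at least 100 CPM, 84 remained, with 53 called lower and 4 higher in shSC (median −0.83) and 42 and 7 in shCTSL (median −0.63). The 59 ribosomal protein genes of up to 1000 bases had 39 called lower in shSC (median −0.85) and 32 in shCTSL (median −0.80), with 0 higher in either, and the 41 of any length with at least 100 CPM had medians of −0.78 and −0.65. Short abundant transcripts outside the genes chosen here had medians close to those of the ribosomal protein genes. These sets were not matched on length and level together, and no test of the difference was made. Mitochondrial ribosomal proteins and ribosomal proteins with other symbols were not kept out of the comparison genes. Over the 12125 genes within the range of exonic length of the family the medians were −0.02 and 0.04. Removing each library's trend with transcript length by offsets moved the family's median at Day 4 to −0.56 in shSC (−0.94 without them) and to −0.60 in shCTSL (−0.82).

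**Figure D3:**
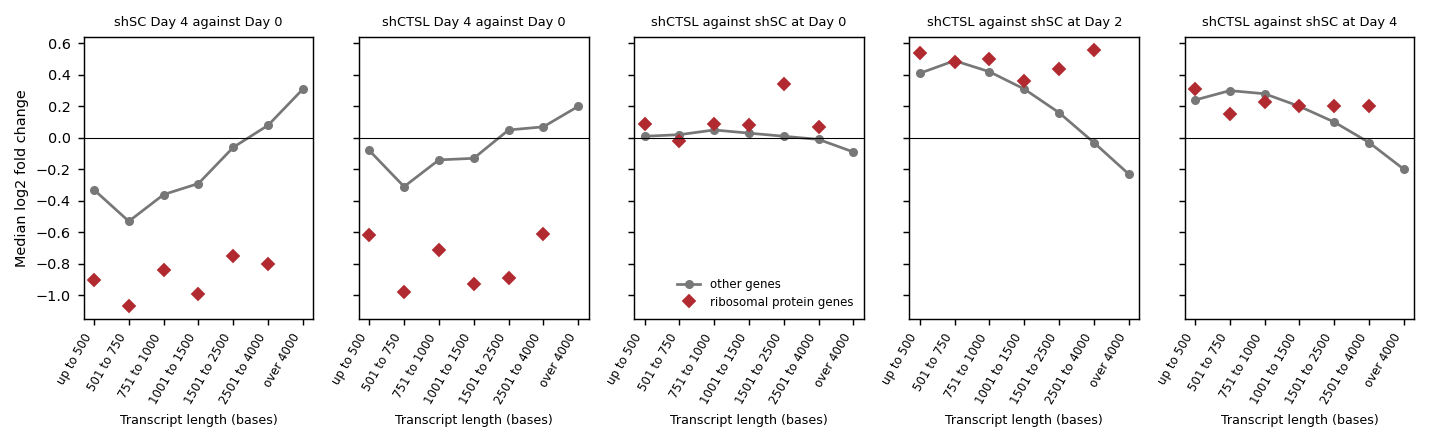
Median log2 fold change (y axis) by class of transcript length in bases (x axis) for ribosomal protein genes (diamonds) and other genes (circles joined by lines), for Day 4 against Day 0 in each line and for shCTSL against shSC on each day. In shSC at Day 4 the diamonds lie below the circles in each class that holds such genes, for example −1.07 against −0.53 in the second class.

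Copied sequence and low level went with larger falls. At Day 4 the 15 genes with at most 15% of windows copied had a median of −0.77 in shSC (9 called lower) and −0.49 in shCTSL (6 called). The 28 genes with 15 to 50% copied had −0.81 (16) and −0.66 (10), and the 14 with 50 to 75% had −0.89 (8) and −0.76 (8). The 25 genes with over 75% copied had −1.32 (20) and −1.14 (20). The 19 genes under 10 CPM, most of them in the last class, likewise had −1.32 (15 called) and −1.14 (14 called). Whether reads from pseudogenes or their removal set these larger values was not tested.

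**Figure D4:**
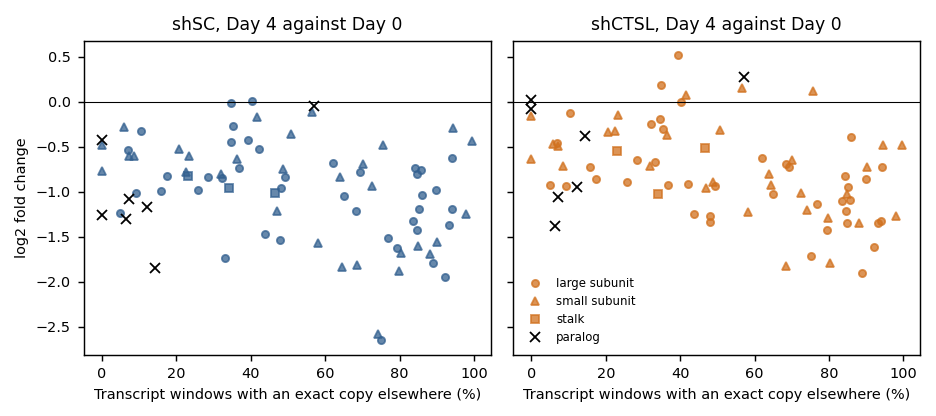
Log2 fold change at Day 4 against Day 0 (y axis) of each ribosomal protein gene against the share of its transcript windows with an exact copy elsewhere in mm9 (%, x axis), for shSC and shCTSL, with large subunit genes as circles, small subunit genes as triangles, stalk genes as squares and paralogs as crosses. Genes over 75% copied have a median of −1.32 in shSC and −1.14 in shCTSL, and genes of at most 15% copied −0.77 and −0.49.

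The family includes 8 paralogs with an l or l1 ending, copies or relatives of a core gene, several of which are used in particular tissues. At Day 4, 6 of 8 were called lower in shSC (median −1.21) and 4 in shCTSL (median −0.66). They did not move as a block, and their partners differ too. Rpl7l1 (chromosome 17, 46910856 to 46919605), a nucleolar relative of Rpl7, had 402 and 433 CPM at Day 0 and 169 and 171 at Day 4 in shSC (−1.30, SE 0.14, adjusted p = 2.11e-05), and 446 and 439 at Day 0 and 163 and 179 at Day 4 in shCTSL (−1.38, SE 0.14, adjusted p = 1.43e-05). Its partner Rpl7 had 615 and 656 at Day 0 and 353 and 358 at Day 4 in shSC (−0.84, SE 0.28, adjusted p = 0.0224). Rps4l, an autosomal copy of the X-linked Rps4x, went from 583 and 571 to 277 and 269 (−1.08, SE 0.25, adjusted p = 0.00292) and Rps4x from 479 and 526 to 282 and 279.5 (−0.84, SE 0.25, adjusted p = 0.0127). Rps27l, a p53 target in other cells, went from 198 and 199 to 88.9 and 88.3 (−1.17, SE 0.25, adjusted p = 0.00175), while Rps27, with 99.6% of windows copied, had only 2.29 and 1.86 CPM at Day 0 and 1.68 and 1.32 at Day 4 (not called). Rpl32l fell from 32.8 and 24.6 to 11 and 9.78 (−1.46, SE 0.25, adjusted p = 0.000458) and Rpl32 from 582 and 592 to 320.0 and 342 (−0.83, SE 0.29, adjusted p = 0.029). All of these fell in shCTSL as well, except Rps27 (−0.48, adjusted p = 0.338).

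Rpl22l1 (chromosome 3, 28704358 to 28706274), whose mRNA is repressed by its partner protein Rpl22, had a fold change near 0 in shSC, where that of Rpl22 was below 0. Rpl22l1 had 54.1 and 57.1 CPM at Day 0 and 55 and 52.1 at Day 4 in shSC (−0.05, SE 0.33, adjusted p = 0.893), and 66.1 and 68.7 at Day 0 and 81.1 and 83 at Day 4 in shCTSL (0.28, SE 0.33, adjusted p = 0.462). Rpl22 had 484 and 512 at Day 0 and 341 and 342 at Day 4 in shSC (−0.54, SE 0.19, adjusted p = 0.029, under 1.5-fold and not called), and 570.0 and 537 at Day 0 and 370.1 and 435 at Day 4 in shCTSL. Rpl3l, the muscle form of Rpl3, was near the limit of detection, with 1.45 and 1.61 CPM at Day 0, 2.06 and 2.1 at Day 2 and 1.28 and 0.971 at Day 4 in shSC. In shCTSL it had 0.746 and 0.843 at Day 0, 3.2 and 1.87 at Day 2 and 0.704 and 0.787 at Day 4. It was highest at Day 2 in both lines, and the fall from Day 2 to Day 4 was called in both lines (shSC −0.85, SE 0.29, adjusted p = 0.0485, shCTSL −1.73, SE 0.31, adjusted p = 0.00238), as was the rise to Day 2 in shCTSL (1.65, SE 0.34, adjusted p = 0.00185). The call in shSC did not hold when any 1 of 10 libraries was left out, all but the shCTSL Day 2 pair, with an adjusted p of 0.0564 to 0.201.

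The second question is whether knockdown of Ctsl changes these transcripts. None of the 84 genes was called between shCTSL and shSC at Day 0, Day 2 or Day 4 by the quasi-likelihood test, where 0.0386%, 0.0644% and 0.0129% of all genes were. The median log2 fold changes were 0.08, 0.49 and 0.23 (all genes −0.02, 0.02 and −0.00), and shCTSL was higher in 52, 81 and 69 of the 84. Without adjustment 7, 19 and 3 genes had a p under 0.05, counts for which no share of all genes is given. DESeq2 called 2, 1 and 0, where it called 0.309%, 0.792% and 0.85% of all genes. The Day 2 median rests on 1 library: it was −0.12 without replicate 1 of shCTSL Day 2 and 0.93 without replicate 2, when 62 of the 84 were called, all higher in shCTSL (15.6% of all genes). Other genes of up to 1000 bases were higher by about as much, with medians of 0.03, 0.45 and 0.29 against 0.03, 0.50 and 0.23 for ribosomal protein genes of that length. With offsets for transcript length the Day 4 median was 0.01.

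The largest differences between the lines at Day 0 were in Rpl10l and Rpl39l, and both were lower in shCTSL. Rpl10l (chromosome 12, 67384368 to 67385388, 14.3% copied) is an intronless copy of the X-linked Rpl10 that replaces it in male germ cells, and Rpl39l (chromosome 16, 10170319 to 10175004, 0% copied) is a copy of the X-linked Rpl39 known from testis and mESCs. Rpl10l had 111 and 119.8 CPM in shSC mESCs and 37.1 and 33.3 in shCTSL mESCs. In shSC it fell to 59.5 and 60.8 at Day 2 and 33.1 and 30.9 at Day 4, and in shCTSL it had 58 and 29.8 at Day 2 and 25.2 and 28.9 at Day 4. The shCTSL mESCs were thus already near the level that shSC reached by Day 4. Rpl39l had 32.3 and 34.6 at Day 0, 17.8 and 18.2 at Day 2 and 13 and 14.9 at Day 4 in shSC, and 14.7 and 9.69 at Day 0, 15.8 and 7.66 at Day 2 and 11.4 and 13.6 at Day 4 in shCTSL. Its shCTSL Day 0 libraries lay within or below the range of shSC Day 4. At Day 0 the groups did not overlap for either gene, which with 2 libraries a group is a weak mark of a difference. The share of all genes that separate between the lines at Day 0 is not given.

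The log2 fold change of Rpl10l at Day 0 was −1.71 (SE 0.25, 95% interval −2.26 to −1.16, 3.28-fold, adjusted p = 0.0698) and that of Rpl39l was −1.44 (SE 0.30, 2.72-fold, adjusted p = 0.215), and neither is called in the fit of all 12 libraries. Without both shCTSL Day 2 libraries, an alternative chosen after seeing the data, the values were −1.70 (adjusted p = 2.01e-08) and −1.41 (adjusted p = 8.49e-05), both called. Then 4 of the 84 genes were called at Day 0 (Rpl10l, Rpl39l and Rps2 lower, Rpl37a higher), against 1.36% of all genes, and 4 were also called without replicate 1 or without replicate 2 alone (1.35% and 1.37% of all genes). DESeq2 on all libraries called both as well (adjusted p = 9.03e-08 and 0.00199), and so did the quasi-likelihood test on the 4 Day 0 libraries alone (adjusted p = 1.04e-14 and 1.37e-08). On all 12 libraries, neither gene was called in edgeR with other scalings (RLE size factors, library totals alone, TMM without the family). Neither was called with a replicate block or a filter of at least 1 CPM in 2 libraries. The values of their partners were nearer 0 at Day 0. Rpl10 had 17 and 19 CPM in shSC and 18.9 and 20 in shCTSL (0.11, SE 0.18, adjusted p = 0.964), and Rpl39 had 64.9 and 93.6 and 99.6 and 88.5 (0.25, SE 0.35, adjusted p = 0.955). Rpl10 has 94.1% of its windows copied and Rpl39 32.2%.

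**Figure D5:**
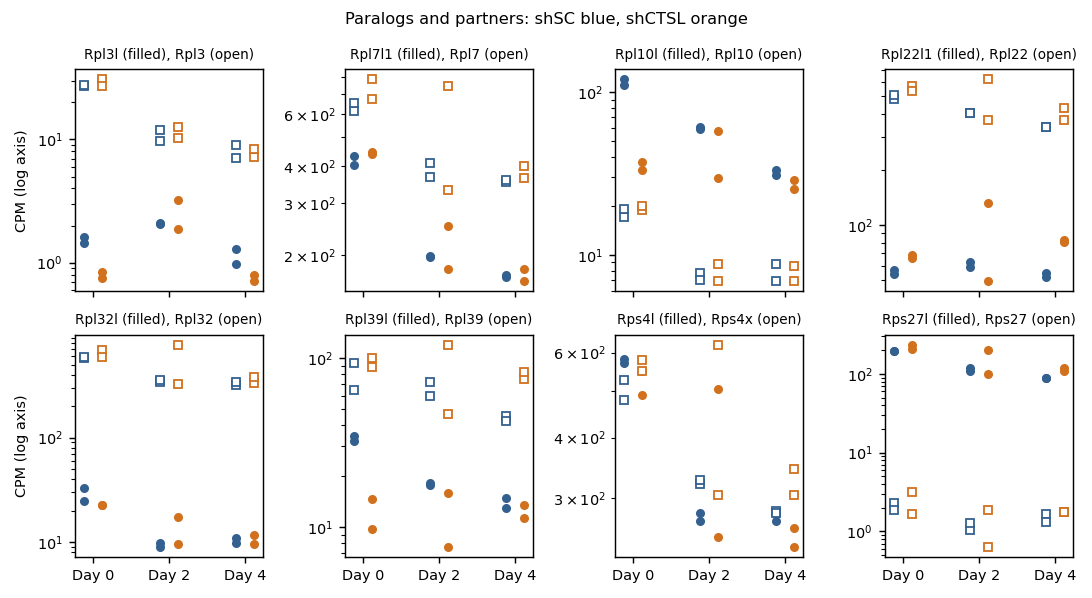
CPM of each library (y axis, log scale) on Day 0, Day 2 and Day 4 (x axis) for paralogs (filled) and their partners (open), shSC in blue and shCTSL in orange. In the Rpl10l panel the shCTSL libraries lie at 37.1 and 33.3 CPM at Day 0 against 111 and 119.8 in shSC, and by Day 4 they lie at 25.2 and 28.9 against 33.1 and 30.9.

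Rps2 and Rpl37a show the other Day 0 values named above. Rps2 had 353 and 296 CPM in shSC and 176 and 244 in shCTSL (−0.63, SE 0.22, adjusted p = 0.548), and Rpl37a had 54.8 and 66.2 and 103 and 87.3 (0.65, SE 0.37, adjusted p = 0.799). Rps15a was the next highest at Day 0 (0.49) and Rpl10l and Rpl39l were the lowest. At Day 2 the highest were Rps2 (0.87) and Rps7 (0.86) and the lowest Rpl39l (−0.63) and Rpl10l (−0.46). At Day 4 the highest were Rpl13 (1.02) and Rps29 (1.0) and the lowest Rps16 (−0.79) and Rpl3l (−0.62). Rpl13, a large subunit protein with 86% of windows copied, had 46.9 and 40.6 CPM in shSC and 83.5 and 93.6 in shCTSL at Day 4 (1.02, SE 0.39, adjusted p = 0.36). Without both shCTSL Day 2 libraries 5 genes were called at Day 4, all higher in shCTSL (Rpl13, Rpl22l1, Rpl39, Rplp1 and Rps28). Of all genes 5.9% were called in either direction, 2.94% higher and 2.96% lower, and no difference from these shares was tested. Leaving out only replicate 1 or only replicate 2 also gave 5 (5.91% and 5.94% of all genes).

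The change from Day 0 to Day 4 was compared between the lines as a difference of differences. None of the 84 genes was called (0.00644% of all genes), and DESeq2 called 1 (0.18% of all genes). An unadjusted p under 0.05 was found for 6, a count for which no share of all genes is given. The median was 0.19, and the fitted fall was smaller in shCTSL for 59 genes. Other genes of up to 1000 bases had a median of 0.26, and the family's median was −0.01 with offsets for transcript length. The highest value was that of Rpl10l (1.47, SE 0.34, adjusted p = 0.5), whose fitted log2 fold changes were −1.85 in shSC and −0.38 in shCTSL, followed by Rps29 (1.38, SE 0.45, adjusted p = 0.652) and Rpl39l (1.28, SE 0.42, adjusted p = 0.652). Without both shCTSL Day 2 libraries 4 genes were called, among them Rpl10l, Rpl39l and Rps2 (1.66% of all genes), with an adjusted p of 2.67e-05 for Rpl10l and 0.0108 for Rpl39l.

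The rest of the machinery that makes ribosomes was read from lists written with earlier results of these data known. Of 4 ribosomal proteins that the symbols miss, 4 were called lower at Day 4 in shSC (median −1.28) and 3 in shCTSL (median −0.99). Fau, which encodes a small subunit protein fused to a ubiquitin-like one, fell by 1.55 in shSC and 1.32 in shCTSL on the log2 scale. Factors of ribosome assembly had lower medians than the ribosomal protein genes, a difference that was not tested. In shSC 46 of 46 were called lower (median −1.65) and in shCTSL 45 of 46 (median −1.70). Rrp12, an export factor of pre-ribosomes, changed by −2.54 and −2.44, and Rrp9, a U3 snoRNP protein, by −2.69 and −2.28. Heatr1, needed for early rRNA processing, changed by −2.38 and −2.50, and Rrp1 least, by −0.59 and −0.35 (adjusted p = 0.056 in shCTSL). Of 20 genes for RNA polymerase I and its factors, which transcribe rRNA, 19 were called lower in shSC (median −1.35) and 17 in shCTSL (median −1.05), with 0 higher. Polr1b, a subunit of its catalytic core, changed by −2.02 and −2.25 and its initiation factor Rrn3 by −1.93 and −2.08.

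Other mRNAs with a TOP tract had medians nearer 0. Of 17 such genes of translation elongation and initiation, 11 were called lower and 0 higher in shSC (median −0.68) and 9 lower and 1 higher in shCTSL (median −0.62). Eef1d changed by −1.52 and −1.25 and Pabpc1, the poly(A)-binding protein, by −1.33 and −1.21, and Hnrnpa1 was the one called higher in shCTSL (0.62, adjusted p = 0.0152). Among 16 genes of mTOR signalling to translation, 6 were called lower and 3 higher in shSC (median −0.47) and 8 and 2 in shCTSL (median −0.49). These include Eif4ebp1, a brake on cap-dependent initiation that mTOR releases, at −2.56 and −2.03, and Ddit4, an inhibitor of mTOR, at 1.6 and 1.43. Of 9 genes of the Myc family, 3 were called lower and 4 higher in each line. Myc (−2.55 and −2.49) and Mycn (−1.86 and −1.76), activators of ribosome genes, were lower, and Mxd4 (4.32 and 4.30) and Mxi1 (2.23 and 1.82), which compete with Myc for Max, were higher. Mitochondrial ribosomal proteins, encoded by 78 other genes, had 62 called lower and 1 higher in shSC (median −1.03) and 52 and 1 in shCTSL (median −0.87), with Mrps6 the one higher (1.74 and 1.29). In all these lists 0 genes were called between the lines at Day 0, Day 2 or Day 4. Of all genes 0.0386%, 0.0644% and 0.0129% were, so 0 calls in lists of this size says little. The counts over time stand beside 28.7% of all genes called lower and 32.1% higher at Day 4 in shSC. In shCTSL these shares were 27.6% and 32.3%.

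All of these changes are relative to the other transcripts of a library. TMM factors were 0.835 to 0.858 in the Day 0 libraries and 1.034 to 1.115 later. With library totals alone the median of all genes at Day 4 moved to 0.35 in shSC and 0.44 in shCTSL. The family's medians were then −0.61 (36 called lower, against 20.2% of all genes) and −0.44 (23 called lower, against 17.8%). Relative to all genes the fall was close to 1 log2 unit under both scalings. A scaling factor moves all genes of a library alike, so this agreement was fixed in advance and does not test the scaling.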

How the data were processed

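RNA-seq was analysed from 12 libraries of mouse embryonic stem cells and embryoid bodies, 2 for each of 6 groups (shSC and shCTSL at Day 0, Day 2 and Day 4). The authors prepared poly(A)-selected directional libraries, aligned the reads to mm9 and deposited raw counts per RefSeq gene. The submitters' processing notes name FastQC 0.11.2, STAR 2.3.0e, SAMtools 0.1.19, featureCounts 1.6.2, DESeq2 1.16.1 and bedtools 2.27.1. Alignments with a mapping quality under 10, to the mitochondrial genome or outside the chromosomes were dropped before counting, and whether the counting used strand is, in the sources used here, not given.

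Genes were filtered with filterByExpr (minimum count 10, 15532 of 24495 kept), scaled by TMM and tested with edgeR 4.0.16 (quasi-likelihood test, R 4.3.3) in 1 model of the 6 groups, with 6 residual degrees of freedom and no covariate. A call needed a Benjamini-Hochberg adjusted p under 0.05 and a 1.5-fold change, since a stated cutoff of 1.5 was read as a fold, and log2 1.5 was tried as an alternative. The steps were tested on simulated data. DESeq2 1.42.0, other filters and scalings, offsets for length and leaving out libraries were alternatives. Libraries held 11171111 to 27155553 counts, and intervals and limits cover counting error or the spread between libraries only.

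Positions, lengths and copied windows (75 bases, an exact match elsewhere in the genome) come from mm9 with GENCODE M1, matched by symbol for 81 of the 85 genes and by another name for 2. Rpl32l and Rpl41 had no match. Start regions come from RefSeq on GRCm38.p6. Python 3.11.15 and matplotlib 3.10.9 were used for tables and plots.

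The ribosomal protein genes and the other lists were chosen with earlier results of these data known. Genes named in the text are the paralogs and their partners, 9 genes of known roles, the members that failed the filter, the extremes of level, and the highest and lowest genes of each comparison (up to 5 called ones each way, 3 at Day 4 against Day 0, 2 between the lines), with up to 2 called genes each way of the other lists and the targeted and marker genes. Other genes named were chosen after their values were seen. Some results of named genes are not reported here.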

Additional observations from a re-analysis of the deposited data

How the results depend on the processing

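Numbers of ribosomal protein genes called and their medians are given under each alternative that moved them, and the cause of a move was not tested unless stated. For fits without 1 library only the medians are listed here. A log2 cutoff of 1.5 left 13 (shSC Day 2 against Day 0), 0 (Day 4 against Day 2) and 17 (Day 4 against Day 0) in shSC, and 4, 1 and 5 in shCTSL. The shares of all genes at that cutoff are not given. Fitting only the libraries compared gave 4 for shSC Day 4 against Day 2, 14 for shCTSL Day 2 against Day 0, 0 for shCTSL Day 4 against Day 2, 8 at Day 0 and 7 at Day 4 between the lines, and 4 for the difference between the lines in the change to Day 4 (28.3%, 43.3%, 7.67%, 1.93%, 4.58% and 0.992% of all genes). With no filter the counts were 22 (shCTSL Day 4 against Day 2), 2 (lines at Day 0) and 1 (lines at Day 2). Of all genes 17.7%, 0.128% and 0.264% were called there. DESeq2 called 1 for shSC Day 4 against Day 2, 2 and 1 between the lines at Day 0 and Day 2, and 1 for the difference in change. Of all genes it called 23%, 0.309%, 0.792% and 0.18%. Exonic-length offsets gave 2, 2 and 1 for the lines at Day 0, Day 2 and the difference in change, as did transcript-length offsets. Of all genes exonic-length offsets called 0.232%, 0.264% and 0.0386% there, and transcript-length offsets 0.283%, 0.431% and 0.0451%. Their medians were −0.64 and −0.55 (shSC Day 2), −0.06 and −0.04 (shSC Day 4 against Day 2), −0.72 and −0.56 (shSC Day 4), 0.05 and 0.01 (lines at Day 4) and 0.03 and −0.01 (difference in change), exonic before transcript, and −0.60 with transcript offsets for shCTSL Day 4. Genes with at most 15% of windows copied had medians of −0.65 at Day 2 and −0.77 at Day 4 in shSC and −0.49 at Day 4 in shCTSL. Library totals without TMM gave medians of −0.40 (shSC Day 2), −0.61 and −0.44 (Day 4 in shSC and shCTSL) and 0.30 (lines at Day 4). They gave 36 and 23 calls at Day 4 in shSC and shCTSL, all lower, against 20.2% and 17.8% of all genes called lower.

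Leaving out 1 library at a time gave 31 to 58, 0 to 4 and 34 to 65 calls in shSC (Day 2 against Day 0, Day 4 against Day 2, Day 4 against Day 0), with medians of −0.86 to −0.70, −0.18 to −0.11 and −0.96 to −0.84. In shCTSL it gave 20 to 62, 1 to 59 and 26 to 54 calls, with medians of −0.94 to 0.10, −0.79 to 0.16 and −0.92 to −0.71. Between the lines it gave 0 to 4, 0 to 62 and 0 to 5 calls on Day 0, Day 2 and Day 4, with medians of −0.02 to 0.17, −0.12 to 0.93 and 0.12 to 0.31, and for the difference in change 0 to 5 calls with medians of 0.06 to 0.25. Without both shCTSL Day 2 libraries 5 were called for shSC Day 4 against Day 2, 4 and 5 between the lines at Day 0 and Day 4, and 4 for the difference in change. Of all genes this fit called 28.1%, 1.36%, 5.9% and 1.66%. This alternative, the transcript-length offsets, the restriction to little copied genes and the library totals were chosen after seeing the data. Of values of named genes called with all libraries, 600 kept the call under an alternative, 55 lost it and 0 reversed. Genes that gained a call are not in these counts, among them Rpl10l and Rpl39l at Day 0.

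Replicate numbers did not pair the samples: deviations of same-numbered libraries correlated at −0.30 to 0.10 between groups. With the replicate block 1 gene in place of 2 was called for shSC Day 4 against Day 2, and the counts of the other comparisons moved by less than 1.5 times.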

Other observations

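The count table also lists pseudogenes and retrocopies of ribosomal protein genes under their own symbols, outside the genes chosen here. Rpl14-ps1 had 735 and 827 CPM in shSC mESCs and 387 and 402 at Day 4, and 769 and 682 against 403 and 487 in shCTSL. Rpl37rt had 302 and 259 CPM at Day 0 and 167 and 164 at Day 4 in shSC, and 365 and 329 against 147 and 169 in shCTSL. Both lay lower at Day 4 than at Day 0 in every library of each line, and Rpl14-ps1 had more reads than most of the ribosomal protein genes did. Reads that belong to a parent gene and reads of transcripts of these copies cannot be told apart in the deposited counts.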
